A study of Homo sapiens with 6 samples.

Results

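The ligands of the EGF family were followed here at the RNA level in PC9 cells, a human lung adenocarcinoma line whose growth depends on a mutant, constitutively active EGFR. The set held 9 genes chosen by symbol, TGFA, EGF, BTC, HBEGF, AREG, EPGN, NRG4, EREG and NRG1, out of 58825 genes in the deposited gene table. All 9 were found, 1 gene for each symbol. RNA came from 6 libraries. In 3 of them FOXM1, a forkhead transcription factor of the cell cycle, was overexpressed as the A allele of the polymorphism rs3742076, and in the other 3 it was overexpressed as the G allele. Every library was made after 24 h in 100 nM gefitinib, a kinase inhibitor of EGFR, so overexpressed FOXM1 and the drug were common to both groups, and libraries without either are not analysed here. The sources used here do not give the construct, its promoter, or whether each line was a clone or a pool. Nor do the labels say that replicates were separate cultures, so a p-value here is measured against library-to-library spread that may be technical. The study's title places the variant in gefitinib resistance and Wnt signalling.

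EGF family ligands are made as membrane proteins, and metalloproteases of the ADAM family cut most of them loose from the cell surface. The freed or membrane-bound ligand brings together receptors of the ErbB family, EGFR (ERBB1) first among them, and the receptor kinases then switch on the RAS to ERK and PI3K to AKT routes. TGFA, EGF, AREG and EPGN bind EGFR, BTC, HBEGF and EREG bind both EGFR and ERBB4, NRG1 binds ERBB3 and ERBB4, and NRG4 binds ERBB4. Several ligand genes are themselves switched on by ERK, which makes an autocrine loop that an EGFR inhibitor interrupts.

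The libraries each corresponded to about 19765200 to 23289000 read pairs, estimated from the smallest steps in the deposited values, and between 12451 and 12858 genes reached 1 FPKM (fragments scaled by transcript length and by library depth). Library profiles correlated at r = 0.974 to 0.979 within groups and at 0.970 to 0.976 between them. FOXM1 itself was at 25.5, 10.5 and 10.1 FPKM in the A libraries and at 14.6, 14.3 and 13.96 FPKM in the G libraries, so A replicate 1 stood above the other 5 libraries. All 6 epithelial markers examined were at 37.1 FPKM or more in every library, 0 of 5 lung lineage markers reached 1 FPKM, and 0 of 4 endothelial markers did. Of 5 leukocyte markers, CD68 was at 35.9 to 48.7 FPKM and CD14 at 0.680 to 1.17 FPKM. PTPRC, CD3E and CD79A stayed under 1 FPKM in every library. Of 6 fibroblast markers, COL1A1 alone reached 1 FPKM.

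Of the 9 ligands, 3 were expressed at 1 FPKM or more, TGFA, EGF and BTC, and they alone passed the filter for testing (1 FPKM in at least 3 libraries). None of the 3 differed between the alleles by the limma test at a Benjamini-Hochberg adjusted p of 0.05, where 0.109% of the 12787 tested genes did (14 genes). At an unadjusted p under 0.05 the count was 1 of 3, EGF, against 17.3% of all tested genes. The authors marked 0 of the 9 ligands as changed in their deposited table, in which 0.367% of genes carry a mark. In TGFA and EGF, 2 of the 3 tested ligands, all G libraries lay above all A libraries, which was so for 15.4% of tested genes.

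The promoters of 5 members are shown, and transcripts annotated to start in them carried most of the read pairs assigned to those genes. That also held for the windows of HBEGF (85.7%), EPGN (91.0%) and NRG4 (86.8%), which are not printed. Which start the cells used was not measured. The 5 are the 3 tested ligands, then AREG and EREG, which neighbour BTC on chromosome 4 and were nearly silent. The windows are RefSeq sequences of build GRCh38.p14, from 250 bases before to 50 bases after the annotated start, written 5′ to 3′ on the gene's strand. Capitals mark matches on either strand to 6 motifs. They are the TATA box, spelled TATAAA, and the GC box bound by SP1, spelled GGGCGG. The AP-1 motif of FOS and JUN dimers is spelled TGAGTCA, and the CREB element (CRE) of cyclic AMP signalling TGACGTCA. The TEAD motif is spelled GGAATG and the forkhead motif, bound by FOXM1 and its relatives, TGTTTAC. Motifs that share bases were both counted. The windows are, in order, chr2:70553777-70554076 (minus strand), chr4:109912633-109912932 (plus), chr4:74794474-74794773 (minus), chr4:74444886-74445185 (plus) and chr4:74364895-74365194 (plus).
TGFA: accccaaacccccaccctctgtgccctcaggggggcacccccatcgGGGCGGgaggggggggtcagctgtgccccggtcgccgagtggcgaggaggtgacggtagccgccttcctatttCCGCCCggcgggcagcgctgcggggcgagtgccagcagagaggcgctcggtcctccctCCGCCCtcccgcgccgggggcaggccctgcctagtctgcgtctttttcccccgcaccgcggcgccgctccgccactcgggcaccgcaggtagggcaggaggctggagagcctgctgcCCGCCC
EGF: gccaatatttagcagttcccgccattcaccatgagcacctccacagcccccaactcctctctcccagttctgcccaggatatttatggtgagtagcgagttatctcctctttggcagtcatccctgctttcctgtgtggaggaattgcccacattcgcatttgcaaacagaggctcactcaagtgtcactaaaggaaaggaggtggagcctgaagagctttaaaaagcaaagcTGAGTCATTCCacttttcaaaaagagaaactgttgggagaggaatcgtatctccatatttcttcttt
BTC: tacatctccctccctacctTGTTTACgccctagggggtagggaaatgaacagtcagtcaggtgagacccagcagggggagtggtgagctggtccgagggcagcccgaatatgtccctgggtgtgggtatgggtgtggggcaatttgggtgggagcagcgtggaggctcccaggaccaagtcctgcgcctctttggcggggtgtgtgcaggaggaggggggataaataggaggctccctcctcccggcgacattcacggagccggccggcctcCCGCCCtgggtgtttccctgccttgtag
AREG: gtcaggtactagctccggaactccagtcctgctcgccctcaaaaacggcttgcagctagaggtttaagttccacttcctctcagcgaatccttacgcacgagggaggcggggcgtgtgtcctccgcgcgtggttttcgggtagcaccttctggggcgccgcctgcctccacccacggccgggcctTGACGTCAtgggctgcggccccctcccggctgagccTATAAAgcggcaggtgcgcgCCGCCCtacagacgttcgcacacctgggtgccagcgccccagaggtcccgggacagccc
EREG: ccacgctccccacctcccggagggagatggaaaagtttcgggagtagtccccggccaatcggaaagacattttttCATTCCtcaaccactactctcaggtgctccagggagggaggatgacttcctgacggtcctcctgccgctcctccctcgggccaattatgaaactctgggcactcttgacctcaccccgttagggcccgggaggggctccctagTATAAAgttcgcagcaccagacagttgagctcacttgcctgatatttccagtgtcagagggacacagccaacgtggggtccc

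Transcripts that start inside these windows carried 99.2% of the read pairs assigned to TGFA, 86.1% of those of EGF, 95.2% for BTC, 95.6% for AREG and 98.7% for EREG. TGFA has another RefSeq window, whose transcripts carried 0.788% of its read pairs. RefSeq windows of 8 of the 9 members were used, and that of NRG1 was not used here. The TGFA window holds 30 CpG dinucleotides and is 75.3% G or C, the highest of the 8, closely followed by HBEGF at 75.0% with 38 CpG. AREG (66.3%) and BTC (63.0%) also lie above the median of 58.7% over all 35116 RefSeq windows. EREG (57.7%), EGF (46.7%), NRG4 (43.7%) and EPGN (37.7%) lie below it. The order of base composition was not the order of RNA level, as EGF, the member with the next highest level after TGFA, has one of the windows poorest in G and C.

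A TATA box match is present in 4 of the 8 members, AREG, EREG, EPGN and NRG4, and in 11.5% of all windows. In NRG4 it begins 8 bases before the start, with another match after it, and in EPGN 29 bases before. Each of those 4 genes was under 1 FPKM. No exact match lies in the windows of TGFA, EGF or BTC, nor in that of HBEGF, which was also under 1 FPKM. Only the spelling TATAAA was searched, so similar letters, such as gataaa in the BTC window, were not counted. The lack of a match does not mean that a TATA-like element is absent. In AREG the TATA box begins 29 bases before the start and a CRE match begins 65 bases before it, a motif held by 1.85% of all windows. EREG has its TATA box 32 bases before the start and a TEAD match 175 bases before it (14.0% of windows). In EGF an AP-1 match (4.95% of windows) begins 17 bases before the start and overlaps a TEAD match that begins 12 bases before it. BTC has the only forkhead match of the 8 members, 231 bases before the start (3.42% of windows), and 1 GC box match after it. TGFA has 4 GC box matches, a motif in 45.0% of windows. These matches are descriptions of letters in the windows, and the motifs were chosen with the sequences in view.

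TGFA was the most abundant ligand in all 6 libraries, 4.30 times the next gene on the FPKM scale, which is corrected for gene length. TGFA encodes transforming growth factor alpha, a ligand of EGFR. The deposited annotation places it on the minus strand of chromosome 2 (GRCh38, 70447284 to 70554193). Its level was 8.67, 9.37 and 9.73 FPKM in A replicates 1, 2 and 3, and 10.2, 9.79 and 9.92 FPKM in the G replicates. The highest A library and the lowest G library stood 9.73 against 9.79, so the groups did not overlap but nearly touched. The means were 9.26 ± 0.54 FPKM in A and 9.98 ± 0.22 FPKM in G (SD, n = 3 each), a log2 difference (G minus A, on log2 of FPKM + 1) of 0.10 with a standard error of 0.062 and a 95% interval from -0.05 to 0.25. The limma adjusted p was 0.45, and the exact two-sided permutation p was 0.1, the smallest that 3 against 3 libraries can give. The lowest value came from A replicate 1, the library with the highest FOXM1, and without it the log2 difference was 0.06 (limma adjusted p = 0.61). Between 920 and 1136 read pairs per library lay behind each value. In these bulk cultures, fewer cells making a transcript and less transcript per cell cannot be told apart.

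EGF, the founding ligand of the family, was the member with the largest difference among the 3 tested, yet it missed the threshold. The gene lies on the plus strand of chromosome 4 (GRCh38, 109912884 to 110013755). It was at 2.05, 1.74 and 2.14 FPKM in the A libraries and at 2.39, 2.46 and 2.64 FPKM in the G libraries, with every G library above every A library. The means were 1.98 ± 0.21 and 2.50 ± 0.13 FPKM (SD, n = 3 each), so the G mean was 26.3% above the A mean. On the log2 scale the difference was 0.23 with a standard error of 0.084 and a 95% interval from 0.03 to 0.44. The unadjusted limma p was 0.030 and the adjusted p was 0.25, which placed EGF at rank 1556 of the 12787 tested genes. The exact permutation p was again 0.1. Without A replicate 1 the log2 difference was 0.25 (limma adjusted p = 0.23). Without A replicate 2, the lowest library, it was 0.17 (limma adjusted p = 0.49). Estimated read pairs ran from 303 to 469 per library.

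BTC encodes betacellulin, which can engage EGFR and ERBB4, and its level did not differ between the alleles beyond the spread of the libraries. It was at 1.62, 2.06 and 1.51 FPKM in the A libraries and at 1.54, 1.73 and 1.78 FPKM in the G libraries. A replicate 2 held the highest value and A replicate 3 the lowest, so the G values fell inside the A range. The means were 1.73 ± 0.29 and 1.68 ± 0.13 FPKM (SD, n = 3 each). The log2 difference was -0.02 with a standard error of 0.10, and its 95% interval from -0.27 to 0.23 covers changes of that size in either direction. The limma adjusted p was 0.94. Leaving out A replicate 2 turned the difference to 0.067, and leaving out G replicate 1 turned it to 0.021.

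**Figure D1:**
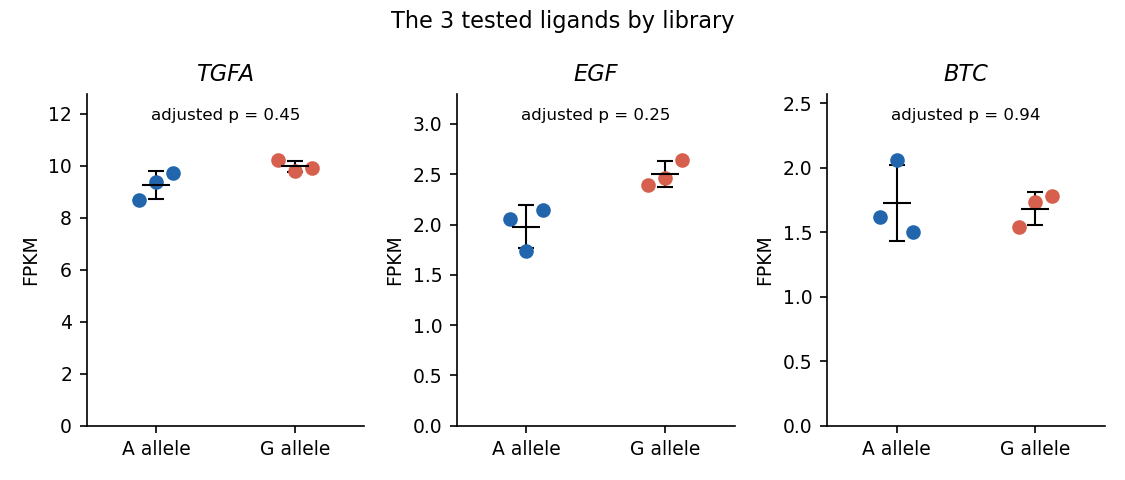
FPKM of TGFA, EGF and BTC in each library, by allele; each axis starts at 0, points are libraries, and bars give the mean ± SD of 3 libraries with the limma adjusted p above. The 3 G points of EGF (2.39 to 2.64) lie above the 3 A points (1.74 to 2.14), the TGFA groups nearly touch, and the BTC groups overlap.

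The scaling of the libraries matters for differences this small. Summed FPKM over all genes ran from 270216 to 277592 in the A libraries and from 253702 to 255266 in the G libraries. Rescaling all libraries to equal sums moved the median log2 difference of all tested genes from 0.02 to 0.11. Relative to that median, TGFA stood at 0.08 as deposited and at 0.09 after rescaling, and EGF at 0.21 and 0.20. BTC stood at -0.04 and -0.06 relative to the median, although its own log2 difference turned from -0.02 to 0.05. With median-ratio factors the TGFA groups overlapped, at 9.77 FPKM in A replicate 3 and 9.61 FPKM in G replicate 2, while those of EGF did not.

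The other 6 ligands stayed under 1 FPKM in every library, and none had groups that failed to overlap. Among 17949 genes under the filter with a value in at least 1 library, 8.47% had groups that did not overlap. They were left out of the filtered limma test. Fitted with no filter on low values, they had limma adjusted p-values from 0.71 (EREG and HBEGF) to 0.97 (NRG4). Exact two-sided permutation p-values over 3 against 3 libraries are given with their values. HBEGF, heparin-binding EGF-like growth factor, was the highest of them. It was at 0.671, 0.465 and 0.528 FPKM in the A libraries and at 0.470, 0.410 and 0.516 FPKM in the G libraries, from 24.8 to 43.3 read pairs per library (exact p = 0.3). A replicate 1 was high and the other 5 libraries lay close together.

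Amphiregulin (AREG), an EGFR ligand that lung tumours often make in quantity, was at 0.197, 0.487 and 0.288 FPKM in A and at 0.415, 0.240 and 0.266 FPKM in G (exact p = 0.8). The highest and the lowest of these values both came from the A group. Each rested on 6.97 to 18.3 read pairs, 34.6 pairs summed over the A libraries against 32.8 over the G libraries. EREG (epiregulin), its close relative and neighbour, was at 0.0649, 0.00765 and 0.0266 FPKM in A and at 0.0798, 0.0862 and 0.0211 FPKM in G (exact p = 0.3). In read pairs that is 8.00, 1.00 and 3.00 against 9.80, 9.94 and 2.81, so G replicate 3 sat among the A libraries.

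Epigen (EPGN), a weak EGFR ligand, had no estimate in A replicate 3 and was at 0.153 and 0.352 FPKM in the other A libraries. In the G libraries it was at 0.0763, 0.0926 and 0.262 FPKM, all under the highest A value (exact p = 0.9, with the missing estimate at its deposited 0.0001). Neuregulin 4 (NRG4) was at 0.107, 0.0854 and 0.106 FPKM in A and at 0.0916, 0.122 and 0.0770 FPKM in G (exact p = 1). Transcripts annotated as targets of nonsense-mediated decay carried 98.4% of the NRG4 read pairs and protein-coding ones 1.61%. NRG4 overlaps FBXO22, a gene on the opposite strand at 2.13 FPKM, and the strand setting used in the counting is not stated in the notes used here, so reads of the pair cannot be told apart with certainty. NRG1 (neuregulin 1) was the lowest member, at 0.0134, 0.00306 and 0.00388 FPKM in A and at 0.00628, 0.0201 and 0.0139 FPKM in G. Those values rest on at most 8.68 read pairs a library (exact p = 0.2).

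**Figure D2:**
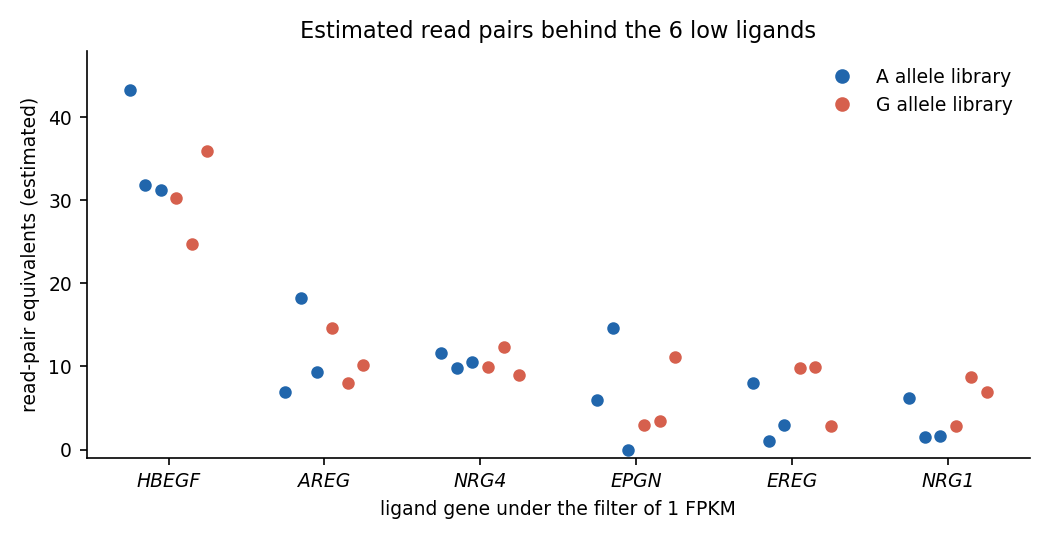
Estimated read pairs (vertical axis, linear from 0) behind the value of each of the 6 ligands under 1 FPKM, one point per library, by allele. HBEGF rests on 24.8 to 43.3 read pairs per library and the other 5 ligands on 18.3 or fewer, with the A and G points interleaved.

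Ranked by mean FPKM over the 6 libraries, the order was TGFA (9.62), EGF (2.24), BTC (1.71), HBEGF (0.510), AREG (0.316), EPGN (0.156), NRG4 (0.0982), EREG (0.0477) and NRG1 (0.0101). Neighbours in that order were separated in their full ranges at 2 places, between TGFA and EGF and between BTC and HBEGF. EGF exceeded BTC in 5 of 6 libraries, though their ranges overlapped. HBEGF likewise exceeded AREG in 5 of 6. The ranges of the remaining neighbours, from AREG down to NRG1, also overlapped.

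**Figure D3:**
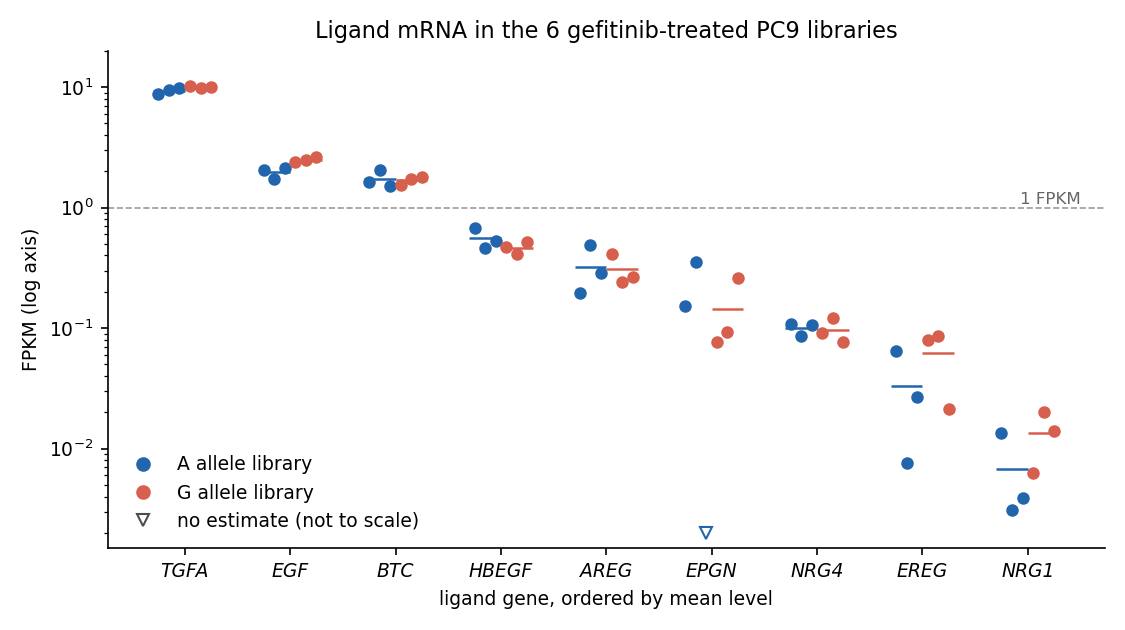
FPKM (log axis) of the 9 ligand genes ordered by mean level, one point per library; short lines are group means, drawn where every library of the group had an estimate, and the open triangle marks a library with no estimate. TGFA, EGF and BTC lie above the dashed line at 1 FPKM and the other 6 below it.

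Added together, the 9 ligands came to 13.6, 14.6 and 14.3 FPKM in the A libraries and to 15.3, 15.0 and 15.5 FPKM in the G libraries. The sums averaged 14.2 ± 0.53 in A and 15.2 ± 0.27 in G (SD, n = 3 each). Of the difference of 1.10 FPKM, TGFA supplied 0.718 and EGF 0.521, and the other 7 genes together were slightly negative. TGFA made up 64.0% to 67.9% of the sum in the 6 libraries. Its share averaged 65.4% ± 2.16 in A and 65.4% ± 1.42 in G. EGF made up 14.0% ± 1.80 in A and 16.4% ± 0.71 in G. The ranges did not overlap but came close, at 15.2% in A replicate 1 and 15.6% in G replicate 1. The EGF share is taken from the same EGF values as given above and was not tested. TGFA, EGF and BTC jointly held 90.4% to 93.5% of the ligand sum. The sum was not tested, and with median-ratio factors its groups overlapped, at 14.74 in A replicate 2 and 14.68 in G replicate 2.

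**Figure D4:**
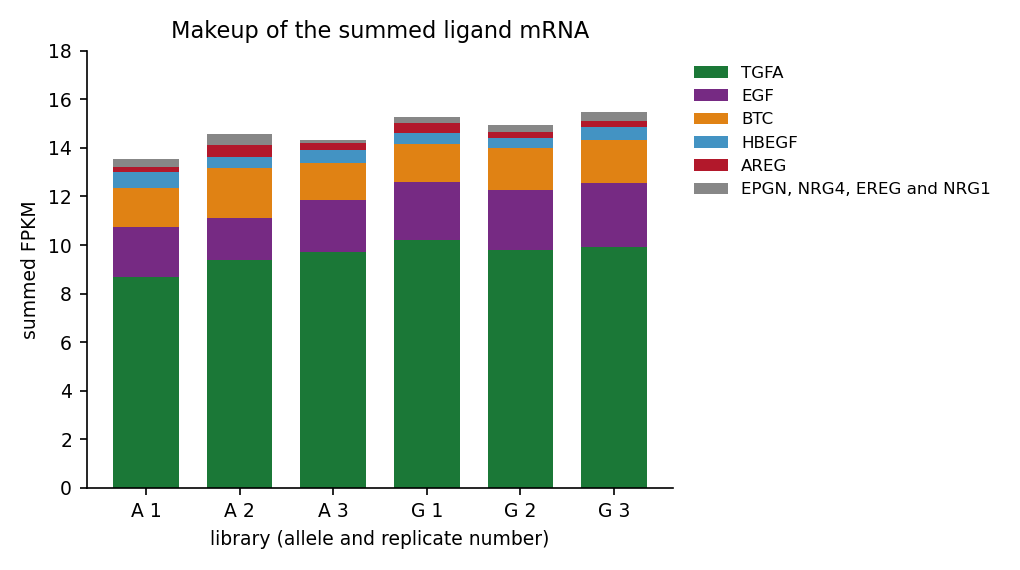
Summed FPKM of the 9 ligands in each library (linear axis from 0), stacked by gene. TGFA fills 64.0% to 67.9% of every bar, and the G bars (15.0 to 15.5) are higher than the A bars (13.6 to 14.6) in the values as deposited.

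Most ligand RNA came from 1 annotated transcript per gene. For TGFA, ENST00000295400 carried 96.7% of the read pairs, averaging 10.7 FPKM with the A allele and 11.5 with the G allele on the transcript's own length, a log2 difference of 0.10 (limma adjusted p = 0.82). A minor TGFA transcript, ENST00000450929, was at 0.368, 0.190 and 0.377 FPKM in the A libraries and with no estimate in any G library, named after its values were seen and too low to be tested. For EGF, ENST00000265171 carried 76.3% of the read pairs, at 1.95, 2.46 and 2.41 FPKM in A and at 2.88, 2.60 and 3.71 FPKM in G. Every G value of that transcript lay above every A value, as in the leading TGFA transcript. For the EGF transcript the log2 difference was 0.31, with a limma adjusted p of 0.72. The minor EGF transcripts ENST00000537316 and ENST00000502723 had no overlap either. They too were named after their values were seen and were too low to be tested. They averaged 0.257 and 0.031 FPKM in A against 0.899 and 0.283 FPKM in G. The share of transcripts without overlap over all transcripts was not computed, so no weight can be put on the lack of overlap in these transcripts. For BTC, ENST00000395743 carried 95.2%, with a log2 difference of -0.07 (limma adjusted p = 0.91). None of these 3 transcripts, the only ligand transcripts that passed the filter, was called by limma, none had an unadjusted p under 0.05, and 0.147% of the 29990 tested transcripts were called. Among the low ligands, the leading transcript held 95.6% of the read pairs of AREG, 98.7% of EREG, 85.7% of HBEGF and 76.6% of EPGN. Those transcripts are all annotated as protein coding. That of NRG4, ENST00000461391, held 85.1% and is annotated as a target of nonsense-mediated decay. In NRG1 the largest share of any transcript was 55.2%, on at most 8.68 read pairs of the gene per library.

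EPGN, EREG, AREG and BTC lie in a row on chromosome 4q13, across 486 kb of GRCh38, beside a cluster of CXC chemokine genes. EPGN spans 74308473 to 74315307, EREG 74365145 to 74388749 and AREG 74445136 to 74455005, all on the plus strand, and BTC 74744759 to 74794523 on the minus strand. EGF is on the same chromosome but 35.5 Mb from AREG. Of the 4 genes in the row, BTC alone reached 1 FPKM. Among 12 other listed genes of the region, CXCL8 (interleukin-8) was the only one to pass the filter, at 1.23 ± 0.39 FPKM against 1.19 ± 0.15 FPKM, with a log2 difference of -0.01 (limma adjusted p = 0.97). CXCL6, PF4V1, PF4, PPBP and CXCL5 had no estimate in any library. BTC and CXCL8 had the highest levels of the region.

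**Figure D5:**
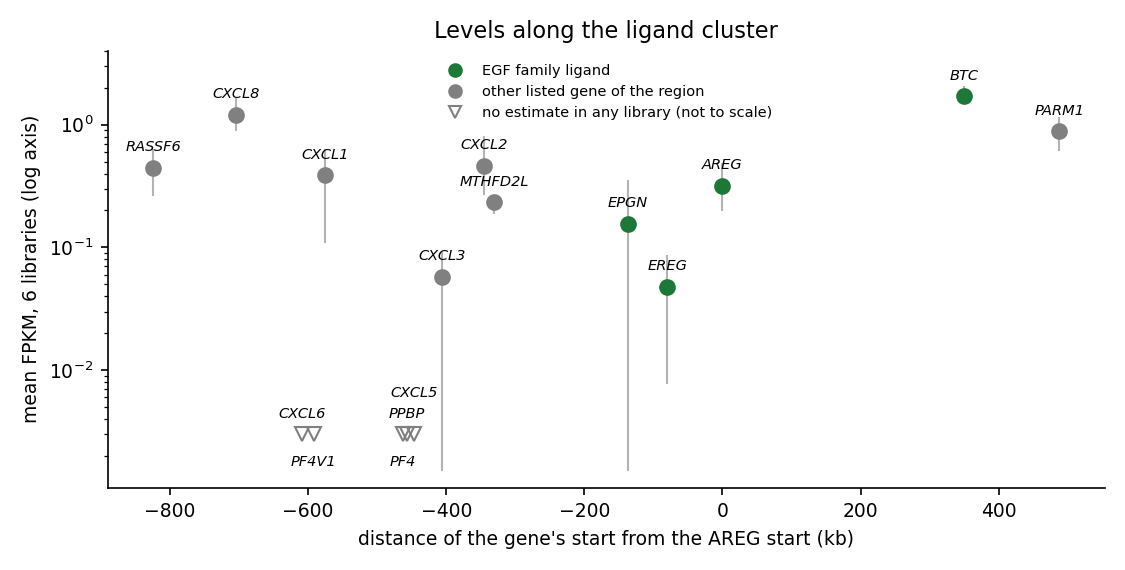
Mean FPKM over 6 libraries (log axis) against distance of the gene's start from that of AREG, for the 4 ligands of 4q13 and 12 other listed genes; vertical lines span the libraries and run to the lower edge where a library had no estimate. BTC (1.71) and CXCL8 (1.21) are the highest points.

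Of the receptors for these ligands, EGFR, ERBB2 and ERBB3 were each at a higher FPKM than TGFA. EGFR was at 73.5, 61.8 and 65.9 FPKM in A and at 84.8, 86.2 and 83.6 FPKM in G, where every G library exceeded every A library. The log2 difference was 0.34 with a standard error of 0.070 (limma adjusted p = 0.16). ERBB2, the receptor that has no ligand of its own, was at 14.3 ± 0.67 and 14.0 ± 0.66 FPKM (SD, n = 3 each). ERBB3, the neuregulin receptor with an impaired kinase, was at 20.7 ± 2.29 and 23.3 ± 2.45 FPKM (adjusted p = 0.45 by limma). ERBB4, which BTC, HBEGF, EREG and the neuregulins can engage, averaged 0.0087 FPKM and was not tested. Of the 4 receptors, 3 were tested, none passed, and their median log2 difference was 0.17 against 0.02 over all tested genes.

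The ligands NRG2 and NRG3, outside the set described here, had no estimate in any library. Of 19 genes for shedding and processing of ligand precursors, 16 were tested and none passed. Their median log2 difference was 0.06, with 9 positive and 7 negative values. Groups did not overlap for 2 genes higher and 4 lower in G, where the shares over all tested genes were 15.4% and 9.57% (24.9% in either direction). ADAM17, the main sheddase of TGFA, AREG, HBEGF and EREG, averaged 7.53 ± 1.85 FPKM with the A allele against 9.20 ± 0.95 with the G allele, in overlapping groups (limma adjusted p = 0.41). RHBDF2, the iRhom2 partner that carries ADAM17 to the cell surface, was at 2.27 and 2.13 FPKM (adjusted p = 0.65 by limma). ADAM9 had the smallest p of that list, with 38.5 ± 2.85 FPKM for the A allele and 43.7 ± 0.43 for the G allele (limma adjusted p = 0.24).

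Among genes that restrain the receptors and genes that carry their signal, none passed the limma test. Of 18 tested negative regulators, 15 differences were positive, where 55.1% were over all tested genes. The median was 0.10 against 0.02 over all tested genes. Groups did not overlap for 3 genes higher and 2 lower in G, where the shares over all tested genes were 15.4% and 9.57%. ERRFI1 (MIG6), which binds and inhibits the EGFR kinase, was at 29.9 ± 3.07 FPKM in A and at 40.9 ± 2.22 FPKM in G, a log2 difference of 0.44 (limma adjusted p = 0.16). CBLC, a ubiquitin ligase of the CBL family, had a negative difference, 30.9 ± 1.69 FPKM in A against 25.7 ± 0.85 in G (adjusted p = 0.18 by limma). Of 30 tested adaptors and kinases, 22 differences were positive, and groups did not overlap for 7 genes higher and 0 lower in G, against 15.4% and 9.57% of all tested genes. PLCG1, a phospholipase that docks on the active receptor, was at 4.67 ± 0.39 and 5.83 ± 0.48 FPKM (adjusted p = 0.21 by limma).

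Among output genes of ERK, 24 were listed. Of these, 15 were tested, and 9 differences were positive and 6 negative. Groups did not overlap for 3 genes higher and 3 lower in G, against 15.4% and 9.57% of all tested genes. Of the 15 genes 1 was called, MAFF, a small MAF transcription factor, against 0.109% of all tested genes. MAFF fell from 5.90 ± 0.36 FPKM in A to 1.66 ± 0.27 FPKM in G (SD, n = 3 each), a log2 difference of -1.38 with a limma adjusted p of 0.0144. That call was lost when A replicate 2, A replicate 3, G replicate 1 or G replicate 2 was left out, when no filter on low values was applied, and in the fit with a replicate block, and 0 genes of these lists were then called. CCND1, cyclin D1, was at 9.73 ± 0.21 and 7.65 ± 0.28 FPKM (adjusted p = 0.15 by limma), and ETV4, an ETS factor, at 2.45 ± 0.11 and 3.06 ± 0.07 FPKM (adjusted p = 0.20).

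Of 18 factors reported to regulate ligand transcription, 17 were tested and none passed. Of the differences, 10 were positive and 7 negative. Groups did not overlap for 5 genes higher and 2 lower in G, against 15.4% and 9.57% of all tested genes. AHR, the aryl hydrocarbon receptor, averaged 3.16 ± 0.14 FPKM with the A allele against 4.58 ± 0.21 with the G allele, with no overlap (limma adjusted p = 0.15). YAP1, a coactivator of the TEAD factors, was at 34.5 ± 3.25 and 29.8 ± 0.61 FPKM (adjusted p = 0.26 by limma). JUNB, a subunit of AP-1, was at 89.4 ± 7.10 and 73.5 ± 8.37 FPKM (adjusted p = 0.24 by limma). Over the 129 genes of all 8 lists, 100 were tested, 67 had a positive difference and 1 was called, against 55.1% positive and 0.109% called over all tested genes.

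The genes whose levels followed each tested ligand most closely were ranked by Pearson's r over the 6 libraries among 6625 genes with a mean of at least 5 FPKM. For TGFA these were ADIPOR2 (an adiponectin receptor, r = 0.993), ITGB1BP1 (an integrin-binding protein, 0.984) and SLC20A1 (a phosphate transporter, 0.984). All 4 genes were lowest in A replicate 1 and highest in G replicate 1. For EGF they were CPT1A (a mitochondrial carnitine palmitoyltransferase, r = 0.996), KIF18A (a mitotic kinesin, 0.989) and FGF11 (a fibroblast growth factor homologue, 0.989). Like EGF, each was lowest in A replicate 2 and highest in G replicate 3. For BTC they included the ribosomal pseudogene RPS23P8 (r = 0.965) and TUBB4B (a beta tubulin, 0.960), both highest, like BTC, in A replicate 2. Ranking 6625 genes over 6 libraries picks out high values by itself, and these are descriptions with no test.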

How the data were processed

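Poly(A) RNA of 6 PC9 libraries was sequenced as stranded read pairs, per the labels' protocols. The submitters' processing notes name cutadapt 1.9, HISAT2 2.0.4 and StringTie 1.3.4d, and the mouse build mm10, but the deposited features carry human Ensembl identifiers at GRCh38 positions. The authors deposited FPKM per gene and transcript, with 0.0001 where there was no estimate, and their own fold change as a ratio and in log2, with p-values and q-values. The deposited FPKM were used as given, as log2(FPKM + 1). Features with 1 FPKM in at least 3 libraries were tested, G against A, with limma 3.58.1 (variance trend, R 4.3.3) and Benjamini-Hochberg adjustment at 0.05. The fit was checked on simulated data only with planted changes larger than the differences of the tested ligands. That check says nothing about differences as small as theirs. Fold changes on the log2(FPKM + 1) scale understate changes of low genes. Single ligands also had an exact two-sided permutation test. The depth was estimated from single-exon genes: whole reads were not recovered, since 25.4% to 27.9% of low values lay within 0.02 of a whole read pair. Gene and transcript FPKM are on different lengths. The members, the 8 gene lists, the tests and the motifs were chosen with earlier results of these data known. Named are all members, up to 3 genes with the smallest p and every called gene per list, the main receptors, ADAM17, RHBDF2, ERRFI1 and FOXM1, the 3 genes most like each tested ligand, and each member's leading transcript. Some genes that this rule names are not reported here. Alternatives were other pseudocounts, filters and scalings, no trend, library weights, a replicate block, each library left out, and the authors' calls.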

Additional observations from a re-analysis of the deposited data

How the results depend on the processing

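TGFA, EGF and BTC were called under none of 18 alternatives. The other 6 ligands had p-values across genes in 3 of them only, without a filter and by the authors' p-values and q-values, and were not called there. For AREG, EREG, EPGN, NRG1 and NRG4 the authors' p-values sit at the upper limit and may stand for no test. Over 16 settings that gave values, the log2 difference of TGFA ran from 0.06 to 0.20 (adjusted p 0.12 to 0.64) and that of EGF from 0.17 to 0.34 (adjusted p 0.11 to 0.49), all positive, while BTC ran from -0.08 to 0.07. BTC turned positive with equal sums per library (0.050) and with library weights (0.0098), and with 1 library left out its lowest and highest values were -0.077 and 0.067. The low ligands moved with the pseudocount: at 0.1 and 0.01 EREG was at 0.28 and 0.83, HBEGF at -0.20 and -0.24 and NRG1 at 0.087 and 0.49, and at 0.01 EPGN was at 0.67, its sign turned, and NRG4 at -0.048. Under the other pseudocounts, 2 scalings and each library left out these 6 have differences with no test, and under quantile normalization, no trend, weights, the block or the stricter filter they were not fitted. With equal sums the ligand sum was 13.9 and 13.7 in A replicates 2 and 3 and 15.9, 15.6 and 16.1 in the G libraries, and with median-ratio factors it was 14.68 in G replicate 2, under the 14.74 of A replicate 2. The 14 called genes became 1 without a filter, 9 with median-ratio factors, 6 with quantile normalization, 4 without a trend, and 5 to 20 with 1 library left out, against 54 by the authors' q-values and 844 by their p-values. Called list genes went from 1 to 0 without a filter, and ran from 0 to 1 with 1 library left out. Called transcripts went from 44 to 23 and 0 at pseudocounts of 0.1 and 0.01, 7 without a filter, 2 with the stricter filter, and 7 to 37 with 1 library left out. The cause of these shifts was not tested.

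Same-numbered A and G libraries deviated from their group means with correlations of 0.07, 0.02 and 0.04, and differently numbered ones with -0.06 to 0.02. For each A library the same-numbered G library had the highest of these correlations. All were small, and they do not settle whether the numbers are pairs. The main fit did not take them as pairs. With a replicate block, 0 genes, 0 list genes and 0 transcripts were called.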
